A study of Mus musculus with 14 samples.

Results

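The ErbB receptors and the neuregulins were followed in cultured mouse oligodendrocyte precursor cells (OPCs) and in the oligodendrocytes (OLs) that form from them. The group was taken by gene symbol and holds 8 of the 23427 genes in the deposited expression table, namely the 4 receptors Egfr, Erbb2, Erbb3 and Erbb4 and the 4 neuregulins Nrg1, Nrg2, Nrg3 and Nrg4. The family was selected on the FPKM values of 1 comparison, in which Erbb4 had among the largest rises after knockdown of Secisbp2l, the gene of the RNA-binding protein Sbp2l. The values of that knockdown are therefore given for the members as a description and without a test.

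ErbB proteins are receptor tyrosine kinases that span the cell membrane and act in pairs. Neuregulins carry an EGF-like domain that binds Erbb3 or Erbb4, whereas Egfr binds EGF and related ligands, and Erbb2, which has no known ligand, joins the others as a partner. Erbb3 has a weak kinase of its own and signals mainly through the partner it pairs with. In the nervous system these receptors are best known for guiding glial cells along axons and, in the case of Erbb4, for a role in inhibitory interneurons.

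OPCs were purified from the cortex of wild-type C57BL/6J mice at postnatal day 7, with 3 pups pooled in a preparation, by immunopanning on an antibody against the receptor Pdgfra. To start differentiation, the growth factor PDGF-AA was taken out of the medium and T3, a thyroid hormone, was given, and days were counted from there. The labels name a serum medium for all samples. The study's methods list no serum in the OPC growth medium and name a reduced serum medium for the transfection only. The 14 mRNA-seq libraries formed 7 groups of 2: Day0 cells and 6 groups at Day3, which were siSbp2l (knockdown of Secisbp2l), siPdgfra (knockdown of Pdgfra), the negative control siRNAs NC siRNA #1 and NC siRNA #2, mock, and non-treated. The siRNA groups received 20 nM siRNA for 72 hours, and the 2 libraries of a group came from independent cultures, so p-values measure the spread between cultures of this kind. The last 4 of these groups are called the 4 controls.

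Values are FPKM, that is fragments scaled to the length of counted exon and to the depth of the library. The depth recovered from the steps between low values was 6.56 M (mega) fragments in NC siRNA #2 replicate 2 and between 18.5 and 31.6 M in the other 13 libraries. The non-treated replicates stood apart, since the SD of their log2 difference across genes was 0.457 against 0.148 to 0.2 in the other 6 groups. Secisbp2l itself was at 3.87 ± 0.0617 FPKM (SD, n = 2) in siSbp2l and between 138 and 249.8 FPKM in the means of the 4 controls. Pdgfra was at 2.996 ± 0.427 FPKM (SD, n = 2) in siPdgfra and between 32.5 and 67.4 FPKM in the controls, so both knockdowns were as labelled. Of the cell type markers, 9 of 9 OPC genes and 12 of 12 OL genes reached 1 FPKM in at least 2 libraries. The summed FPKM of the OL markers was 848 at Day0, 7498 to 10580 in the control means, 6016 in siPdgfra and 3041 in siSbp2l, while that of the OPC markers was 2407, 1129 to 1420, 1194 and 1353. These sums hide unlike members: in siSbp2l the OPC receptor gene Pdgfra had 150 and 144 FPKM, above the 32.4 to 72.1 of the control libraries, Gpr17, of early differentiating cells, had 87.8 and 99.5 against 173 to 229, and the other 7 overlapped the controls. Of the 12 OL markers, 10 were below all 8 control libraries in siSbp2l and 4 in siPdgfra. Tspan2 was above them in siPdgfra, with 144 and 141.5 FPKM against 79.5 to 128. The share of all genes below all 8 control libraries was not counted, so these counts are a description.

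Erbb4 and Erbb3 were the ErbB receptors of these cells by level per length of exon. Together they made up between 95.0% and 99.4% of the summed FPKM of the 4 receptors in every library. Egfr lay between 0.0923 and 1.46 FPKM, and Erbb2 between 0.0089 and 0.189 FPKM, which rests on 1 to 19 fragments per library. Among the ligands, Nrg2 was the most abundant in every group mean, at 0.827 to 2.28 FPKM over the libraries, and Nrg1, Nrg3 and Nrg4 stayed under 1 FPKM in all 14. A gene was tested only if it reached 1 FPKM in at least 2 libraries, and 4 of the 8 members did so: Erbb4, Erbb3, Egfr and Nrg2. Egfr passed only through 4 libraries, both of siSbp2l, 1 of mock and 1 of non-treated. Its differences of non-treated, mock or the mean of the controls from Day0 or siPdgfra are therefore described without a p-value.

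**Figure D1:**
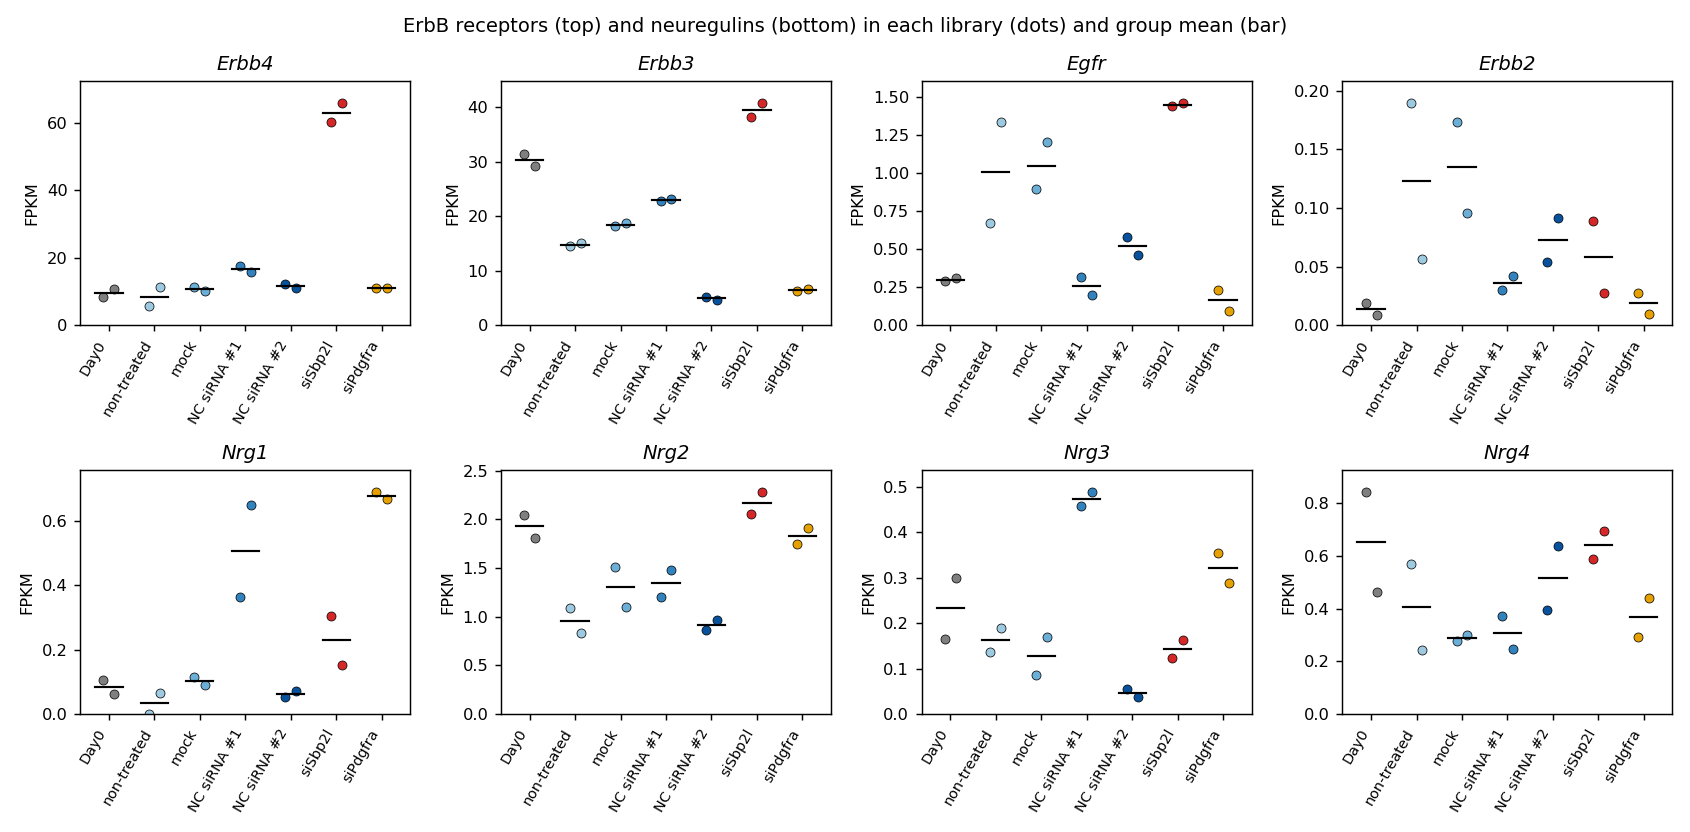
FPKM (vertical axis, from 0, with a separate scale per gene) of the 8 members in the 7 groups (horizontal axis). Dots are the 2 libraries of a group and bars their mean. The siSbp2l dots of Erbb4, at 60.1 and 65.7 FPKM, lie above all 12 others, and the Erbb3 libraries reach from 4.70 in NC siRNA #2 to 40.7 in siSbp2l.

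The counted gene models set what these levels can show. Erbb4 lies on the minus strand of chromosome 1 (chr1:68039966-69108059, mm10), spans 1068 kb and was counted over 4257 bases of exon, 34.5% of the 12355 bases that GENCODE M21 annotates as exon for it. Erbb3 lies on chromosome 10 (chr10:128569368-128589501) with 4020 bases counted, Egfr on chromosome 11 (chr11:16752203-16913907) with 6438, and Nrg2 on chromosome 18 with 2830. Nrg1 was counted on a single transcript of 2103 bases (chr8:31818028-31918203) that covers 9.37% of the 1069 kb span of the GENCODE gene. Its low values therefore describe that transcript and not all forms of the gene.

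Erbb4, a neuregulin receptor with an active kinase, had 60.1 and 65.7 FPKM in the siSbp2l libraries. At Day0 it had 8.49 and 10.7 FPKM, in non-treated cells 5.74 and 11.3, and in mock 11.5 and 10.3. With NC siRNA #1 it had 17.6 and 15.7 FPKM, with NC siRNA #2 12.3 and 11.2, and with siPdgfra 10.9 and 11.2. The siSbp2l libraries thus stood clear of every other library, NC siRNA #1 came next without overlapping any other group, and the ranges of NC siRNA #2, siPdgfra, mock, Day0 and non-treated overlapped from neighbour to neighbour. The siSbp2l mean of 62.9 ± 3.96 FPKM (SD, n = 2) was 5.26 times the mean of the 4 controls and between 3.77 and 7.38 times the single control means. It was 6.56 times the Day0 mean and 5.68 times the siPdgfra mean. Erbb4 was backed by 312 to 6068 fragments per library, so counting error was small beside these differences.

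On the log2(FPKM + 1) scale Erbb4 was 2.35 (SE 0.175) above the mean of the controls in siSbp2l, rank 3 from the highest of 11650 genes tested. By control it was 1.85 for NC siRNA #1, 2.33 for NC siRNA #2, 2.43 for mock and 2.81 for non-treated. By the rule that a call needs 2-fold or more on this scale and a limma Benjamini-Hochberg adjusted p under 0.05, 2 of the 8 members, Erbb4 and Erbb3, met the rule against the mean of the controls. Over all genes tested 7.19% were called there, 3.12% higher and 4.08% lower. Only Erbb4 met it against all 4 controls, as 3.23% of all genes did. For the members these counts describe the contrast that chose the group and are no test, and nothing is read from the shares beside them.

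Erbb3, the neuregulin receptor that relies on a partner kinase, was above 1 FPKM in every library and ranged widely between groups. It had 38.1 and 40.7 FPKM in siSbp2l, 31.5 and 29.2 at Day0, and 22.9 and 23.2 with NC siRNA #1. It had 18.2 and 18.7 FPKM in mock, 14.6 and 15.0 in non-treated cells, 6.32 and 6.61 in siPdgfra, and 5.25 and 4.70 with NC siRNA #2. No neighbouring groups in this order overlapped. The siSbp2l mean of 39.4 ± 1.82 FPKM (SD, n = 2) was 2.57 times the mean of the controls, 1.30 times the Day0 mean and between 1.71 and 7.92 times the single control means. The log2 difference in siSbp2l was 1.48 (SE 0.0721) against the mean, and by control 0.75 for NC siRNA #1, 1.06 for mock, 1.35 for non-treated and 2.76 for NC siRNA #2. It was thus past 2-fold against all controls but NC siRNA #1, and against mock it was 0.90 after the libraries were rescaled by median ratios.

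Egfr and Nrg2 were low genes that were also higher in both siSbp2l libraries than in all 8 control libraries. The share of all genes placed so was not counted, and nothing is read from this placing. Against the mean of the controls, 6879 of the 11650 genes tested had an unadjusted limma p under 0.05 in siSbp2l. Egfr, the receptor of EGF itself, had 1.44 and 1.46 FPKM in siSbp2l and between 0.202 and 1.34 in the controls, where non-treated replicate 2 came close. Nrg2, a ligand of Erbb3 and Erbb4, had 2.06 and 2.28 FPKM in siSbp2l and between 0.827 and 1.51 in the controls. Their log2 differences against the mean of the controls were 0.55 (SE 0.123) for Egfr and 0.58 (SE 0.0973) for Nrg2, both under 2-fold on this scale, which understates changes of low genes. Of the members below the minimum, Nrg4 had 0.59 and 0.693 FPKM in siSbp2l and 0.243 to 0.638 in the controls, and Nrg1 and Nrg3 lay within the range of the control libraries. Erbb2 had 0.0888 and 0.0277 FPKM in siSbp2l and 0.0304 to 0.189 in the controls.

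**Figure D2:**
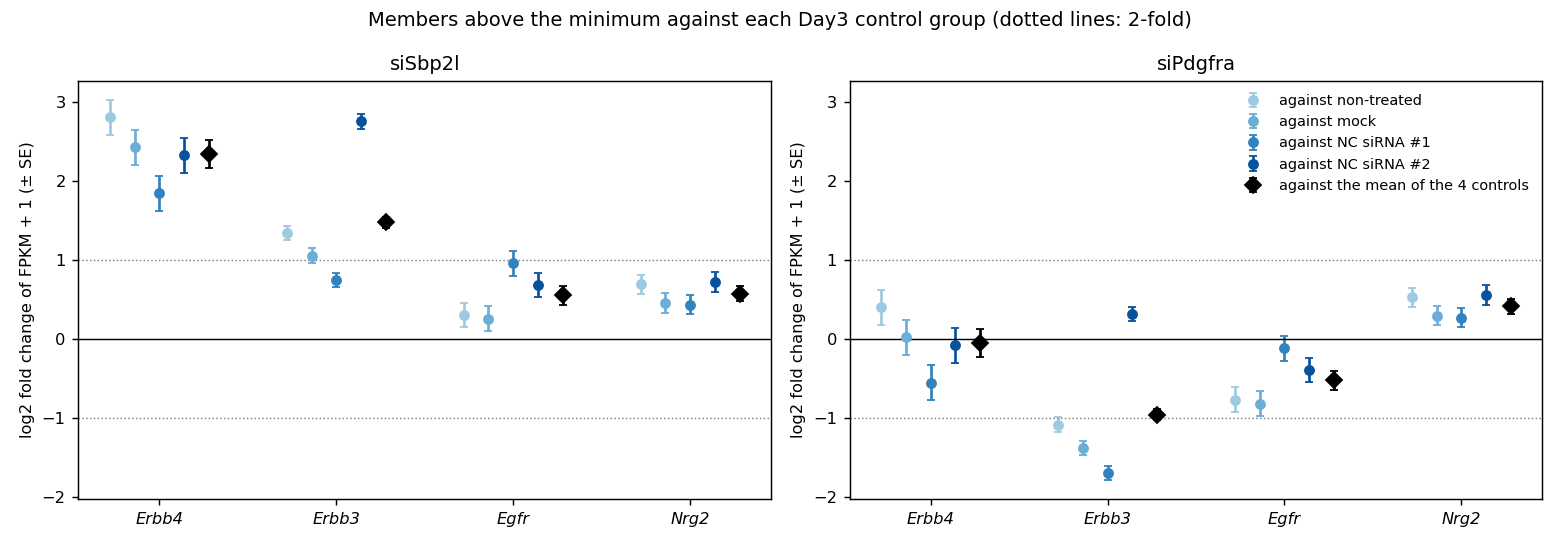
Log2 fold change of FPKM + 1 (vertical axis, bars ± SE from limma) of the 4 members above the minimum (horizontal axis) in siSbp2l (left) and siPdgfra (right) against each control group (circles) and the mean of the 4 controls (diamonds). Dotted lines mark 2-fold. Erbb4 in siSbp2l lies between 1.85 and 2.81, and Erbb3 changes by -1.69 to 0.32 in siPdgfra with the control chosen.

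Markers of other cells were read beside these values, because Erbb4 is known from interneurons. Of 12 interneuron markers, 3 reached 1 FPKM in at least 2 libraries, and Sst and Npy were listed at 0 in all 14. Their summed FPKM was 6.59 and 7.41 in siSbp2l, where Erbb4 was highest, and lay between 5.70 and 9.67 in the control libraries. The sum of 11 neuron markers was 230 and 231 FPKM in siSbp2l, 255 in the siPdgfra mean, 292 in the NC siRNA #1 mean and 81.0, 116 and 136 in the means of non-treated, mock and NC siRNA #2, with Slc17a6 listed at 0 throughout. Most of that sum was the tubulin gene Tubb3, at 194 FPKM in the siSbp2l mean. In siSbp2l 3 of the 11 were above all 8 control libraries. Dcx had 22.4 and 23.8 FPKM against 3.06 to 6.98, and Syt1 4.94 and 5.16 against 0.354 to 1.71. Rbfox3 had 1.15 in the mean against 0.151 to 0.599. Of these 3, Dcx and Syt1 were also above the controls in siPdgfra, at 7.48 and 4.72 FPKM in its mean, where Erbb4 was not. The other 8 overlapped the controls in siSbp2l. Among them, the siSbp2l means of Snap25 (0.215 FPKM) and Syp (3.87) were below all 4 control means, which started at 0.371 and 4.36. The share of all genes above all 8 control libraries was not counted. Of the interneuron markers, Gad1 (0.916 and 0.870 FPKM) and Dlx1 (0.613 and 0.995) were above the control libraries in siSbp2l, all under 1 FPKM. The control libraries ran from 0.293 to 0.685 for Gad1 and from 0.170 to 0.574 for Dlx1. The other 10 were not clear of the controls. Among them, Pvalb had a siSbp2l mean of 0.736 FPKM, below the control means of 1.24 to 3.04. The sum of 9 astrocyte markers was 230.8 FPKM in siSbp2l, 180.3 in siPdgfra and 226 to 368 in the control means. In siSbp2l Fgfr3 was above all 8 control libraries, and 3 markers (Aqp4, Aldh1l1 and S100b) were below them. In siPdgfra 5 of the 9 were below them and none above. Of 8 microglia markers 1 reached the minimum and C1qb was at 0 throughout, with summed means of 3.60 FPKM in siSbp2l and 1.24 to 9.14 in the controls. Endothelial markers summed to at most 1.93 FPKM in a library, with Cldn5 and Cdh5 at 0, and pericyte and fibroblast markers to at most 0.368 FPKM. The OL marker sum was lowest of the Day3 groups in siSbp2l, as given above. The part of these OL, OPC, neuron, interneuron and astrocyte markers in the member values was not tested. In bulk samples, fewer cells of a type and less RNA per cell cannot be told apart.

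The balance of both main receptors was read as the ratio of Erbb4 to Erbb3 FPKM. It was 0.27 and 0.366 at Day0, 0.394 and 0.753 in non-treated cells, 0.63 and 0.553 in mock, and 0.771 and 0.679 with NC siRNA #1, so Erbb3 was the higher gene there. It was 1.58 and 1.61 in siSbp2l, 1.73 and 1.70 in siPdgfra and 2.34 and 2.38 with NC siRNA #2, so Erbb4 was the higher gene in these. The same side was reached from different levels. In siSbp2l both receptors were high, with a summed receptor level of 99.8 and 107.9 FPKM, whereas in siPdgfra and NC siRNA #2 the sum was 16.4 to 18.2 FPKM and Erbb3 was low.

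**Figure D3:**
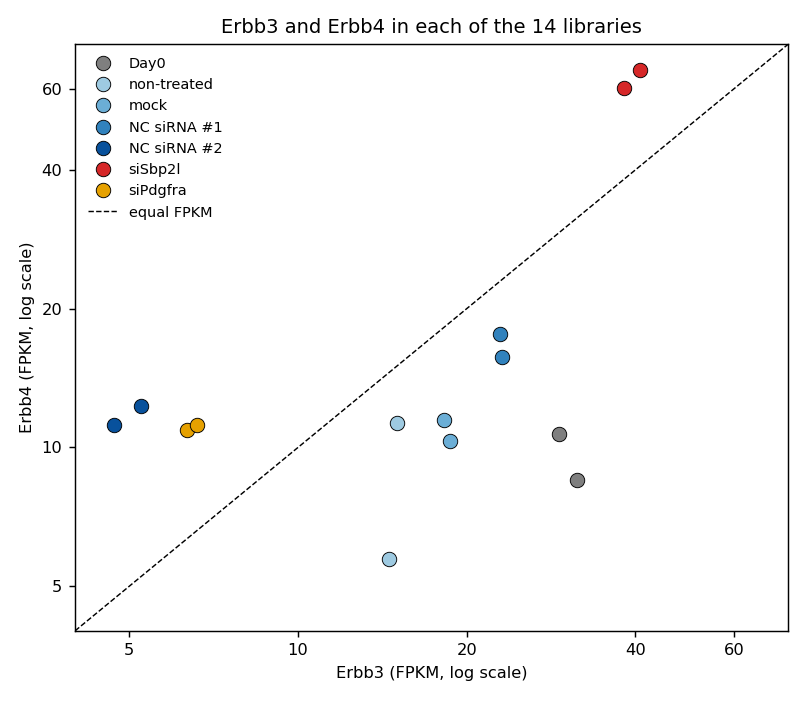
Erbb3 (horizontal) against Erbb4 (vertical) in FPKM on log axes, 1 dot per library, with a dashed line of equal FPKM. The siSbp2l libraries sit at the top right, siPdgfra and NC siRNA #2 to the left above the line with Erbb3 between 4.70 and 6.61 FPKM, and the other 8 libraries below the line.

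The siPdgfra group gives the same comparisons after loss of another transcript. It shares its control libraries with the siSbp2l comparison. Erbb3 fell against 3 of the 4 controls by the call rule, by 1.08 on the log2 scale from non-treated (limma adjusted p = 1.02e-05), by 1.38 from mock (limma adjusted p = 2.59e-06) and by 1.69 from NC siRNA #1 (limma adjusted p = 1.28e-06). These are the only member calls in the 3 comparisons, in which 11.0%, 9.43% and 9.74% of all genes tested were called. Against NC siRNA #2, where 10.2% of genes were called, Erbb3 was 0.32 higher (SE 0.0912; limma adjusted p = 0.0155), under 2-fold and with the opposite sign. Against the mean of the 4 controls the difference was -0.96 (SE 0.0721; limma adjusted p = 3.47e-06), just short of 2-fold, and no member was called there or against all 4 controls. Of all genes 7.99% were called against the mean, 3.97% higher and 4.03% lower, and 3.61% against all 4. Scaling the libraries by median ratios or upper quartiles put Erbb3 past the line, at -1.03 and -1.04.

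Egfr and Nrg2 differed from the controls in siPdgfra without reaching 2-fold. Egfr had 0.235 and 0.0923 FPKM, from 32 and 12 fragments, with a log2 difference of -0.52 against the mean of the controls (SE 0.123). This is a description, since Egfr passed the minimum only through libraries where it was high, controls among them. The difference was -1.49 with a pseudocount of 0.1 and -0.14 with one of 5. Nrg2 had 1.75 and 1.91 FPKM, above all 8 control libraries, and a difference of 0.42 (SE 0.0973; limma adjusted p = 0.00474). The share of all genes placed so was not counted. In this comparison 7081 of 11650 genes had an unadjusted limma p under 0.05. Erbb4, with 10.9 and 11.2 FPKM, lay within the range of the controls, and its difference against their mean was -0.05.

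Nrg1 and Nrg3, ligands that were under the minimum, were both higher in siPdgfra and with NC siRNA #1 than with NC siRNA #2. Nrg1 had 0.689 and 0.666 FPKM in siPdgfra (31 and 28 fragments), 0.362 and 0.649 with NC siRNA #1 (15 and 26 fragments) and 0.305 and 0.153 in siSbp2l (13 and 7 fragments). The other libraries had at most 0.114 FPKM from 0 to 7 fragments, and the 0 in non-treated replicate 1 allows up to 0.0711 FPKM. Nrg3, which binds Erbb4, had 0.458 and 0.488 FPKM with NC siRNA #1, 0.354 and 0.289 in siPdgfra and 0.0546 and 0.0384 with NC siRNA #2. In a fit without the minimum, over 17629 genes, Nrg1 was 0.53 higher in siPdgfra than in the mean of the controls (SE 0.0712; limma adjusted p = 0.000524) and Nrg3 0.15 higher (SE 0.0381; limma adjusted p = 0.0149), neither reaching 2-fold on the log2(FPKM + 1) scale. Against NC siRNA #1 alone the values were 0.16 for Nrg1 (limma adjusted p = 0.218) and -0.16 for Nrg3 (limma adjusted p = 0.0367). Nrg4, another ligand of Erbb4, differed by -0.0082 (SE 0.0974; limma adjusted p = 0.969).

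The control siRNAs were set against each other to see how far the members vary without a target. Erbb3 was 4.63 times as high with NC siRNA #1 as with NC siRNA #2, or 2.01 on the log2 scale (SE 0.0912, limma adjusted p = 7.06e-07), and was the only member called, among 3.99% of all genes. Both NC siRNA #2 libraries were low, at 390 and 124 fragments, although their depths differed. Nrg3 was 0.49 higher with NC siRNA #1 (SE 0.0483) and Nrg1 0.50 higher (SE 0.09), with limma adjusted p-values of 0.000286 and 0.00725 in the fit without the minimum. The NC siRNA #2 side rests on 4 and 1 fragments for Nrg3 and on 2 and 1 for Nrg1. Its replicate 2 was under the floor of 3 fragments for both genes. Egfr differed by -0.27 (limma adjusted p = 0.266) and Nrg2 by 0.29 (limma adjusted p = 0.135). Erbb4 differed by 0.47 between these groups. Mock and non-treated cells differed in no tested member by the call rule, and Erbb3 was nearest at 0.30 (limma adjusted p = 0.196), where 0.00858% of all genes, that is 1 gene, was called. That count was 113 without non-treated replicate 1, 5 without non-treated replicate 2 and 0 without mock replicate 2.

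The members were then compared between Day3 and Day0. Non-treated cells had 48.7% of the Day0 level of Erbb3, at -0.99 on the log2 scale (SE 0.0865; limma adjusted p = 1.37e-06), and mock cells 60.7%, at -0.69 (SE 0.0865; limma adjusted p = 2.78e-05). Nrg2 was also lower, at -0.58 in non-treated (limma adjusted p = 0.00104) and -0.35 in mock (limma adjusted p = 0.0216). Egfr was 0.60 higher in non-treated and 0.65 higher in mock, as its Day0 libraries held 0.291 and 0.309 FPKM against 0.668 to 1.34 there. Because Egfr passed the minimum only through Day3 libraries where it was high, this is a description and no test. Without Day0 replicate 2 or non-treated replicate 2 Erbb3 in non-treated cells passed 2-fold, at -1.04 and -1.01. With all libraries no member reached the call rule in these comparisons, in which 26.6% of genes were called for non-treated and 26.2% for mock. Erbb4 differed by -0.21 in non-treated and 0.17 in mock, with the single non-treated libraries on either side of the Day0 range.

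The siPdgfra group against Day0 compares no library of the contrast that chose Erbb4, and Erbb4 was tested in it. The fit drew its error from all 14 libraries, those of that contrast included. It had 11.1 ± 0.19 FPKM (SD, n = 2) in siPdgfra and 9.6 ± 1.56 (SD, n = 2) at Day0, a log2 difference of 0.20 (SE 0.22; limma adjusted p = 0.449). With only the 4 libraries of these groups fitted, the limma adjusted p was 0.176. Erbb3 was the only member called, with 21.3% of its Day0 level, -2.07 on the log2 scale (SE 0.0865; limma adjusted p = 2.94e-09), where 27.7% of all genes were called. Egfr differed by -0.16 (limma adjusted p = 0.338) and Nrg2 by -0.05 (limma adjusted p = 0.736). In the fit without the minimum Nrg1 was 0.63 higher in siPdgfra (SE 0.0852; limma adjusted p = 0.000162).

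The genes around the receptors were counted from 4 lists. They hold 82 genes that are not members, of which 70 passed the minimum. Against the mean of the controls, siSbp2l had 5 higher calls among the 70 (7.14%) and 2 lower ones (2.86%), and siPdgfra had 4 (5.71%) and 1 (1.43%). Beside these stand the shares of all genes given above. The higher calls in siSbp2l were 3 without non-treated replicate 2 or without siSbp2l replicate 2, and 2 with a pseudocount of 5, which left 1 in siPdgfra. They also turned on the scaling, because the median of all genes was 0.15 above 0 in siSbp2l as deposited and 0.0033 after median-ratio scaling. That scaling changed the calls over all genes from 363 higher and 475 lower to 214 higher and 616 lower, and those of the lists from 5 higher and 2 lower to 1 higher and 4 lower. Erbb4 stayed at 2.19 and Erbb3 at 1.32 in siSbp2l under it.

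Of the 7 other EGF-type ligands, only Tgfa and Hbegf passed the minimum, and neither was called. Tgfa, a ligand of Egfr, had 22.9 FPKM in siSbp2l, 19.5 in siPdgfra and 25.6 in the mean of the controls. Hbegf, which binds Egfr and Erbb4, was 0.89 higher in siSbp2l (limma adjusted p = 7.69e-05). Of 13 tested proteases that shed ligands or cleave receptors, Adam19 was the only one called. Adam19, a membrane metalloprotease that can process neuregulin, had 7.27 FPKM in the mean of the controls, 12.1 in siSbp2l and 15.9 in siPdgfra. The control means ran from 2.84 to 18.4 FPKM, so that 1 control was above both knockdowns, and the gene was called against 3 of the 4 controls in each. Its log2 fold changes were 1.01 (SE 0.0842; limma adjusted p = 6.81e-06) and 1.38 (SE 0.0842; limma adjusted p = 9.2e-07), and the siSbp2l value was 0.86 after median-ratio scaling. The list's median was -0.05 in siSbp2l and -0.09 in siPdgfra, with 0.15 and 0.09 over all genes.

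Among 14 tested genes listed for restraint or turnover of the receptors, 2 were called higher in each knockdown and none lower. The list medians were 0.39 in siSbp2l and 0.06 in siPdgfra. Whether a listed gene restrained the receptors in these cells was not tested. Over all genes tested 3.12% and 3.97% were called higher, at medians of 0.15 and 0.09. After median-ratio scaling the list medians were 0.22 and -0.0057. Lrig3, a leucine-rich repeat membrane protein of the Lrig family, had 12.3 FPKM in siSbp2l, 12.6 in siPdgfra and 5.84 in the mean of the controls. Its log2 fold changes were 1.01 (limma adjusted p = 6.38e-06) and 1.04 (limma adjusted p = 4.98e-06). Cblb, a ubiquitin ligase that acts on active receptor kinases, rose by 1.02 in siSbp2l (limma adjusted p = 4.06e-05) and differed by 0.08 in siPdgfra (limma adjusted p = 0.533). Socs5, a SOCS box protein, rose by 1.01 in siPdgfra (limma adjusted p = 3.88e-06) and was at -0.59 in siSbp2l (limma adjusted p = 0.000136). All 4 of these calls lay just past 2-fold and fell below it after median-ratio scaling, where the values were 0.86, 0.97, 0.88 and 0.93. Lrig3 was called against 2 of the 4 controls in siSbp2l and 3 in siPdgfra. Cblb was called against 2 controls in siSbp2l and Socs5 against 1 in siPdgfra.

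Of 41 tested adaptor and cytoplasmic signalling genes, 4 passed the call rule in siSbp2l, 2 in each direction, and 2 in siPdgfra, 1 in each, at list medians of 0.35 and 0.24. Over all genes tested 7.19% and 7.99% were called, at medians of 0.15 and 0.09. After median-ratio scaling the list medians were 0.19 and 0.16. Pik3r1, a regulatory subunit of the lipid kinase PI3K, rose by 1.12 in siSbp2l (limma adjusted p = 1.56e-05), or 0.95 after median-ratio scaling, and was called against 2 of the 4 controls. Pik3r3, another such subunit, fell in both knockdowns, from 142.5 FPKM in the mean of the controls to 36.4 in siSbp2l and 32.1 in siPdgfra. Its log2 fold changes were -1.81 (limma adjusted p = 1.12e-06) and -1.99 (limma adjusted p = 6.66e-07). Dlg1, a membrane scaffold protein, fell from 74.7 to 26.9 FPKM in siSbp2l (log2 fold change -1.41; limma adjusted p = 1.64e-06), a call that held against each control. In siPdgfra Dlg1 was at 0.01 (limma adjusted p = 0.912), and it had 12.4 FPKM at Day0. Shc4, an adaptor of the Shc family, rose from 5.67 to 22.7 FPKM in siPdgfra (log2 fold change 1.87; limma adjusted p = 8.66e-08), likewise against each control, and had 27.0 FPKM at Day0.

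**Figure D4:**
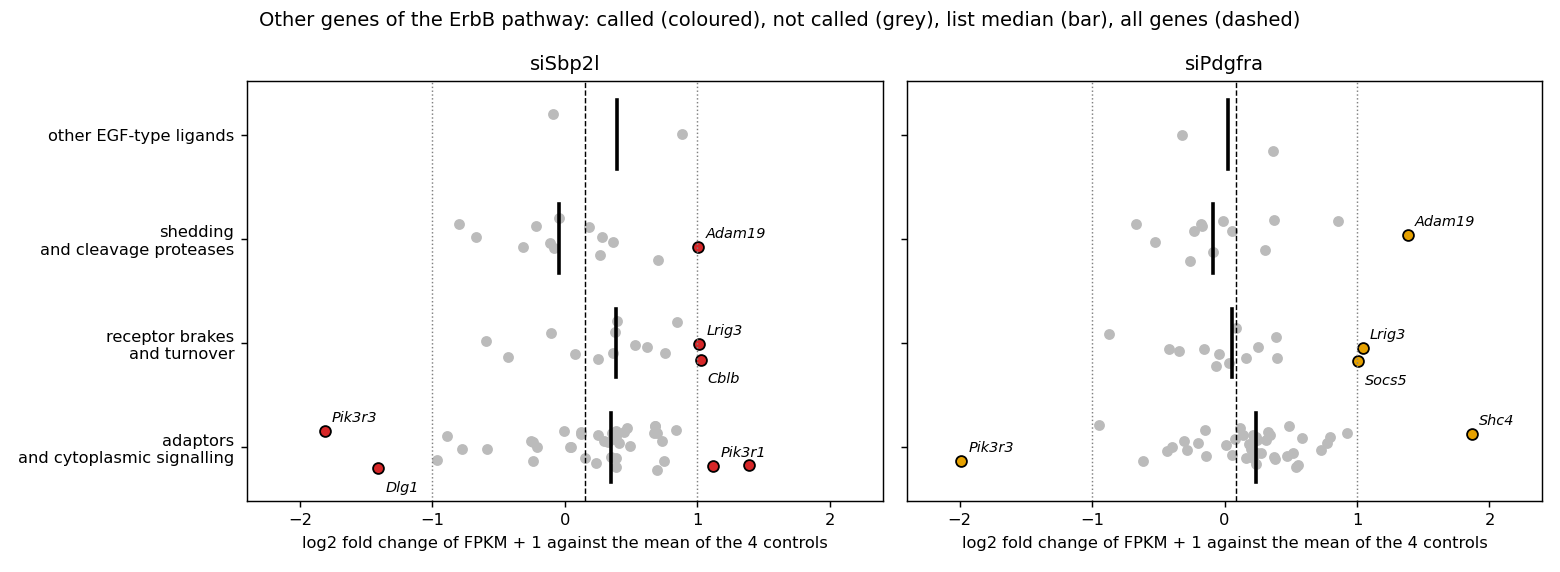
Log2 fold change of FPKM + 1 against the mean of the 4 controls (horizontal axis) for the 70 tested pathway genes that are not members, in 4 lists (rows), for siSbp2l (left) and siPdgfra (right). Coloured dots are called, with names for those described in the text, grey dots are not called, black bars are list medians, the dashed line is the median of all genes and dotted lines mark 2-fold; Pik3r3 lies at -1.81 and -1.99.

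The genes whose group means followed each tested member were taken by the highest Pearson r of log2(FPKM + 1) over the 7 group means, among 6420 or 6421 genes whose means spanned at least 1 log2 unit. For Erbb4 they were Adamts5 (r = 0.993), Rxrg (r = 0.986), Zfp703 (r = 0.985), Nhs (r = 0.9803) and Tap2 (r = 0.977). All 5 were highest in siSbp2l, at 2.14 FPKM for Adamts5, 4.69 for Rxrg, 18.7 for Zfp703, 2.70 for Nhs and 1.38 for Tap2, and the siSbp2l mean carries much of each r. Without it r over the other 6 means was 0.9499, 0.838, 0.858, 0.876 and 0.812 in the same order. In those 6 means Adamts5, Rxrg and Tap2 were under 1 FPKM, so their r there rests on small differences between low values. For Erbb3 they were G3bp2 (r = 0.9698), Dtx4 (r = 0.914) and Zfp521 (r = 0.914), for Egfr Sfrs18 (r = 0.969), Abcd3 (r = 0.966) and Impact (r = 0.948), and for Nrg2 Asap1 (r = 0.993), Dbc1 (r = 0.967) and Arid5b (r = 0.962). Among the members, Erbb4 and Erbb3 had r = 0.514 over the 7 means and 0.018 without siSbp2l. These points share libraries within a group, and the values are a description.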

How the data were processed

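The deposited FPKM values, 1 column per library, were made by the authors in OmicSoft ArrayStudio on the mm10 refGene model; the version, aligner and strand setting are not given in the sources used here. A second deposited table gave start, end, exon length and transcript number, columns of other kinds that were used as annotation, and the authors' own fold changes, p-values and adjusted p-values for siSbp2l, which were not used. Non-treated Day3 columns are named by day only and were matched by name. The members and gene lists were chosen with earlier results of these data known.

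Depth was estimated from the steps between low FPKM values (0.2 FPKM or more, up to 50 fragments), of which 88.8% to 92.5% came within 0.1 of a whole fragment in genes with 1 transcript. Floors of 3 fragments cover counting error only. limma 3.58.1 in R 4.3.3 was run on log2(FPKM + 1) with trend and robust moderation, on the 12 Day3 libraries (11650 genes, 6 residual degrees of freedom) or all 14 for Day0 contrasts (11874 genes, 7), for genes with 1 FPKM in at least 2 libraries. Two-sided p-values were adjusted by Benjamini-Hochberg across the genes of each contrast, and a call needed 2-fold and 0.05. The fit was tested on simulated data. Named are the members, list genes called against the mean of the 4 controls (at most 4 each way per list) or against all 4, the 5 genes most like Erbb4 and 3 for each other tested member, and the targeted genes. Likeness without siSbp2l was added after seeing the data. Alternatives were the pseudocount, the minimum, the scaling, the libraries fitted, the variance model, a replicate block and leaving out each library. GENCODE M21 was used for exon totals. A called gene of the lists is counted but not reported here by name.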

Additional observations from a re-analysis of the deposited data

How the results depend on the processing

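The count of called members stayed within 1.5 times its value in 99 pairs of a comparison and an alternative setting, and moved further in 11. Erbb4 entered these counts only in siSbp2l against the controls and in siPdgfra against Day0. With a pseudocount of 0.1 it was 2 in siPdgfra against the controls, 2 in non-treated and 1 in mock against Day0, each from 0. Each of these counts holds Egfr, which passed the minimum only through libraries where it was high. Median-ratio and upper-quartile scaling gave 1 in siPdgfra. With no fold threshold the counts were 3 each in siPdgfra, non-treated and mock, again with Egfr among them. The count was 4 in siSbp2l, where it is a description of the contrast that chose the group and no test. Leaving out each library gave 0 to 1 for non-treated against Day0, with Erbb3 called at -1.04 without Day0 replicate 2 and at -1.01 without non-treated replicate 2. Egfr in mock against non-treated turned to -0.19 without non-treated replicate 1 and -0.06 without mock replicate 2, in a range from -0.19 to 0.29 over the libraries left out. Nrg2 in siPdgfra against Day0 turned to 0.011 without Day0 replicate 1, in a range from -0.11 to 0.011. None of these 3 values was called. Erbb3 in siPdgfra against non-treated was -0.79 and not called with a pseudocount of 5. Over all genes, calls against the mean of the controls went from 838 to 1376 in siSbp2l and from 931 to 1527 in siPdgfra with a pseudocount of 0.1, and to 392 and 382 with 5, since a larger pseudocount shrinks the fold of low genes by construction. Erbb4 in siSbp2l lay between 2.03 and 2.46 and Erbb3 between 1.23 and 1.56 over 19 alternatives.

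Replicate numbers were not used to pair the samples in the main fit. Deviations of same-numbered libraries correlated between -0.38 and 0.47 and exceeded 0.1 in 4 of 21 pairs of groups. With 2 libraries per group this cannot show whether same-numbered libraries shared a cell preparation. With a replicate block the calls in siPdgfra went from 931 to 930, and the block changed no member's call. Each group has 2 libraries, and Erbb2, Nrg1, Nrg3 and Nrg4 rest on at most 51 fragments.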
